A study of Mus musculus with 26 samples.

Results

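Succinate dehydrogenase is built from 4 proteins, and its mRNAs Sdha, Sdhb, Sdhc and Sdhd were followed in macrophages sorted from mouse mammary tumours. The 4 genes were taken by exact row name, out of 19549 gene rows in each count table, and each has a row of its own. The family was selected on its polysome minus total values and its size effects. Those values are therefore described without p-values, and only the contrasts between batches are tested for the subunits. The p-values measure the spread between tumours.

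The study asked how the mRNA engaged in translation compares with the whole mRNA of tumour macrophages as tumours differ in size. Female FVB mice aged 5 to 7 weeks received PyMT mammary tumour cells in the fourth inguinal gland. CD11b+ F4/80+ Ly6G- cells were sorted from 13 tumours with cycloheximide present, a drug that holds ribosomes on mRNA. From each tumour about 10 percent of the cells gave total mRNA, and the remainder gave polysome mRNA, the sucrose gradient fractions with 3 or more ribosomes per mRNA, so that 26 libraries were made with SmartSeq2. The small tumours numbered 8, of 467 to 841.8 mg, with replicates 1 to 5 in batch 1 and replicates 6 to 8 in batch 2. The large tumours numbered 5, of 1504 to 2245 mg, with replicates 1 and 2 in batch 1 and replicates 3 to 5 in batch 2. All groups shared the strain, the sex and the injected tumour cells, and no animal received a treatment in the labels. The age at collection is not in the labels, so age and size of a tumour cannot be told apart. The injected cells stand in for a tumour that arises in the gland itself, and the sort by surface proteins leaves macrophages of every subtype together.

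Succinate dehydrogenase, also called complex II, sits in the inner mitochondrial membrane. It is the enzyme shared by the tricarboxylic acid cycle and the respiratory chain: it oxidises succinate to fumarate and hands the electrons to ubiquinone. SDHA is the flavoprotein that binds succinate, SDHB carries the iron-sulfur clusters, and SDHC and SDHD anchor both in the membrane, bind haem and form the ubiquinone site. All of its subunits are encoded in the nucleus and are made by cytosolic ribosomes, unlike the other complexes of the chain that pump protons, each of which also holds proteins made inside mitochondria. In macrophages the enzyme is known for the succinate that builds up when it is inhibited and for itaconate, a product of activated macrophages that inhibits it.

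The stretch around the start codon is shown because it is where scanning ribosomes begin the coding sequence. Each line gives the last 12 bases of the 5′ leader, the start codon and the next 3 bases of the main GENCODE M21 transcript (mouse build GRCm38, the same as mm10), in the sense of the mRNA. Capitals mark position −3, the ATG and position +4, counted with the A of ATG as +1.
Sdha: gggaaggcaGacATGGcc
Sdhb: tcaggagccAaaATGGcg
Sdhc: ccggaactcAagATGGct
Sdhd: ctcgaaagcGacATGGcg
All 4 had a purine at position −3 and G at position +4. Of 10841 coding genes tested, 87.0% had the purine, 52.5% had the G and 45.5% had both. Whether these bases, or the lengths given below, bear on the polysome values was not tested.

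The members differ in length. Sdha (ENSMUSG00000021577.14) lies on the minus strand at chr13:74322254-74350280. Its transcript Sdha-201 has 15 exons and 2900 bases, with a leader of 72 bases, a coding part of 1995 and a 3′ untranslated part of 833, and encodes 664 amino acids. Sdhb (ENSMUSG00000009863.14) lies on the plus strand at chr4:140961203-140979193. Sdhb-201 has 8 exons and 1142 bases, of which 202 are leader, 849 coding and 91 the 3′ untranslated part, for 282 amino acids. It is the only member with ATG triplets in the leader, 2 of them, a feature of 52.8% of the coding genes tested.

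The anchors have short coding parts. Sdhc (ENSMUSG00000058076.12) lies on the minus strand at chr1:171127165-171150603, and Sdhc-202 has 6 exons and 3171 bases. Of these only 510 are coding, for 169 amino acids, after a leader of 25 bases and before 2636 bases of 3′ untranslated sequence. Sdhd (ENSMUSG00000000171.5) lies on the minus strand at chr9:50596357-50603812, and Sdhd-201 has 4 exons and 1231 bases, with 23 of leader, 480 coding and 728 after the stop, for 159 amino acids. A coding part no longer than that of Sdhd was found in 7.75% of the coding genes tested, whose medians were 1371 coding bases, 183 of leader and 1044 of 3′ untranslated part. The first base C followed by at least 4 C or T, as mRNAs of the translation machinery often begin, was found in 2.29% of these genes and, among the 4 annotated transcripts, in that of Sdha.

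An overlap with another annotated gene was found for Sdha and sequence like that of other genes in Sdhc. The gene span of Sdha, introns included, overlaps the processed pseudogene Gm16125 over 339 bases on the other strand. The library method does not mark the strand, so reads from that stretch cannot be told apart by strand. No other gene's transcript, that of Gm16125 included, resembled the main transcript of Sdha, Sdhb or Sdhd over 100 bases or more. The stretch from base 2651 to base 2888 of Sdhc, in the 3′ untranslated part, resembled transcripts of 511 other genes over up to 223 bases, with at most 93.0% identity. How the deposited counts treated reads from such stretches is not given in the sources used here.

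Total counts per library were 18018519 to 55609113 for total mRNA and 7034173 to 28257436 for polysome mRNA. The sort was visible in the RNA: Csf1r, the receptor of the macrophage growth factor, stood at 648 to 4340 CPM in total mRNA, F4/80 (Adgre1) at 119 to 1050 and CD11b (Itgam) at 16.7 to 427, whereas Ly6g did not exceed 0.0801. Summed over 8 macrophage markers, total mRNA held 6180 to 43800 CPM in small and 14400 to 48000 in large tumours, and polysome mRNA held 1360 to 19400 and 10300 to 19900. Neutrophil RNA was not absent, although Ly6g was near 0. Summed over 8 neutrophil markers, total mRNA held 25.9 to 185 CPM in small and 72.3 to 166 in large tumours. Polysome mRNA held 13.8 to 455 and 79 to 264 of them. Both libraries of small replicate 7 stood apart, with the lowest macrophage sum and with 4030 CPM of mammary epithelial markers in total mRNA (others 55.1 to 761) and 3420 of fibroblast markers (others 64.8 to 2200). In total mRNA, Lars2, an abundant transcript of these samples, was at 36.9, 55.1 and 48.8 CPM in small replicates 6 and 7 and large replicate 3 and at 503 to 8030 in the other tumours. The main values of the subunits, their shares, the gene lists and the batch contrasts are also given without these 3 tumours, and the other values are from all 13.

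Sdha mRNA was the member most depleted from polysomes and Sdhc mRNA the one most enriched, whereas Sdhb and Sdhd lay close to the middle of all genes. Levels are CPM, read counts per library total after TMM scaling, and a polysome minus total value is a difference in log2 CPM within 1 tumour. A value of −1 therefore means that the TMM-scaled level of an mRNA was 2-fold lower in the polysome library than in the total library. In bulk RNA, fewer cells with an mRNA and less of it per cell cannot be told apart.

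Sdha, the catalytic flavoprotein, ranged in total mRNA of small tumours from 167 to 389 CPM with a median of 269. In large tumours, replicates 1 to 5, it was at 306, 385, 380, 350 and 195 CPM. In polysome mRNA the small tumours ranged from 15.9 to 81 CPM with a median of 21.4, and the large tumours were at 25, 50.4, 31, 49.7 and 33.9. The highest polysome level of Sdha was thus below its lowest total level. Polysome minus total was below 0 in 13 of 13 tumours, from −4.43 in small replicate 5 to −2.26 in small replicate 6, with a mean of −3.27 ± 0.63 (SD, n = 13). The fit over the 26 libraries gave −3.23 ± 0.19 (SE), a fold of 0.107, and 3.37% of the 12109 genes tested had a lower value. Values below 0 in each of the 13 tumours were found for 11% of these genes.

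Sdhb, the iron-sulfur protein that passes the electrons on, ranged in total mRNA of small tumours from 67.8 to 333 CPM with a median of 232. The large tumours were at 247, 292, 90.7, 317 and 157 CPM. Its polysome level was 45.9 to 131 CPM in small tumours, with a median of 68.5, and 142, 303, 186, 240 and 217 CPM in large tumours. Polysome and total levels of Sdhb overlapped, whereas the polysome levels of small and large tumours did not. Polysome minus total spread from −2.52 in small replicate 2 to 1.04 in large replicate 3 and was below 0 in 10 of 13 tumours. The mean was −0.89 ± 1.09 (SD, n = 13), the widest spread of the 4 subunits, and the fitted value −0.69 ± 0.18 (SE), with 40.3% of genes lower.

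Sdhc, the larger of the membrane anchors, ranged in total mRNA of small tumours from 27.4 to 222 CPM with a median of 129. Large tumours were at 123, 131, 49.6, 195 and 124 CPM. The polysome level was 211 to 879 CPM in small tumours, with a median of 461, and 431, 590, 579, 372 and 328 in large tumours. Sdhc was higher in the polysome library than in the total library of each of the 13 tumours, a pattern seen in 6.58% of all genes tested. The difference ran from 0.57 in small replicate 8 to 3.54 in large replicate 3, with a mean of 2.04 ± 0.95 (SD, n = 13). The fit gave 2.02 ± 0.25 (SE), a 4.05-fold higher scaled level, and 95.6% of genes had a lower value.

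The 3 tumours with little Lars2 in total mRNA were also those with the least Sdhc there, at 62.4, 27.4 and 49.6 CPM, and 2 of them, small replicate 7 and large replicate 3, held the highest Sdhc differences. Without these 3 tumours the fitted value of Sdhc was 1.62 ± 0.21 (SE), against −3.13 ± 0.20 for Sdha, −0.79 ± 0.20 for Sdhb and −0.33 ± 0.24 for Sdhd. The part that the difference between these libraries plays in the size of the Sdhc value was not tested.

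Sdhd, the smaller anchor, lay near Sdhb in its polysome minus total value. In total mRNA small tumours ranged from 25.6 to 171 CPM with a median of 65.1, and large tumours were at 57.6, 141, 71, 174 and 27. In polysome mRNA small tumours ranged from 15.7 to 123 CPM with a median of 49.9, and large tumours were at 57.3, 72.6, 31.5, 51.9 and 52.2. The levels of both RNA sources overlapped widely. Polysome minus total was below 0 in 12 of 13 tumours, from −1.74 in large replicate 4 to −0.01 in large replicate 1, and 0.95 in large replicate 5. The mean was −0.50 ± 0.65 (SD, n = 13) and the fit −0.53 ± 0.21 (SE), with 44.8% of genes lower and a median over all genes of −0.34.

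**Figure D1:**
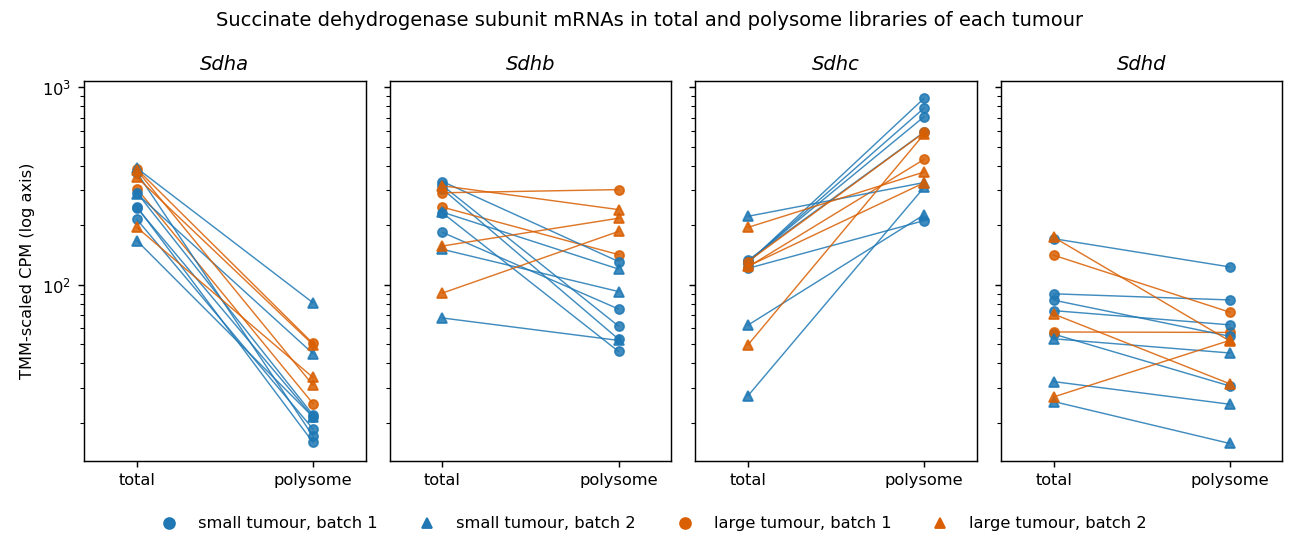
Levels of the 4 subunit mRNAs (TMM-scaled CPM, log axis) in the total and polysome library of each of the 13 tumours, joined by a line per tumour; colour marks size and marker shape marks batch. The Sdha lines all run down, from 167 to 389 CPM to at most 81, the Sdhc lines all run up, and those of Sdhb and Sdhd cross.

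The order of the subunits repeated from tumour to tumour. Sdha had the lowest polysome minus total of the 4 in 13 of 13 tumours and Sdhc the highest in 13 of 13, with Sdhb and Sdhd changing places between them. Sdha minus the mean of the other 3 subunits of the same tumour was −3.49 ± 0.71 on the log2 scale (SD, n = 13), with single tumours between −4.75 and −2.41. By batch it was −3.71 ± 0.50 (n = 7) in batch 1 and −3.23 ± 0.88 (n = 6) in batch 2. By size it was −3.43 ± 0.66 (n = 8) in small and −3.59 ± 0.86 (n = 5) in large tumours. On leaving out the 3 tumours with little Lars2 it was −3.46 ± 0.63 (n = 10). The spread between tumours within a subunit, an SD of 0.63 to 1.09, was smaller than the fitted distance of 5.25 between Sdha and Sdhc. The family was picked for these values, so that distance is a description and was not tested.

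**Figure D2:**
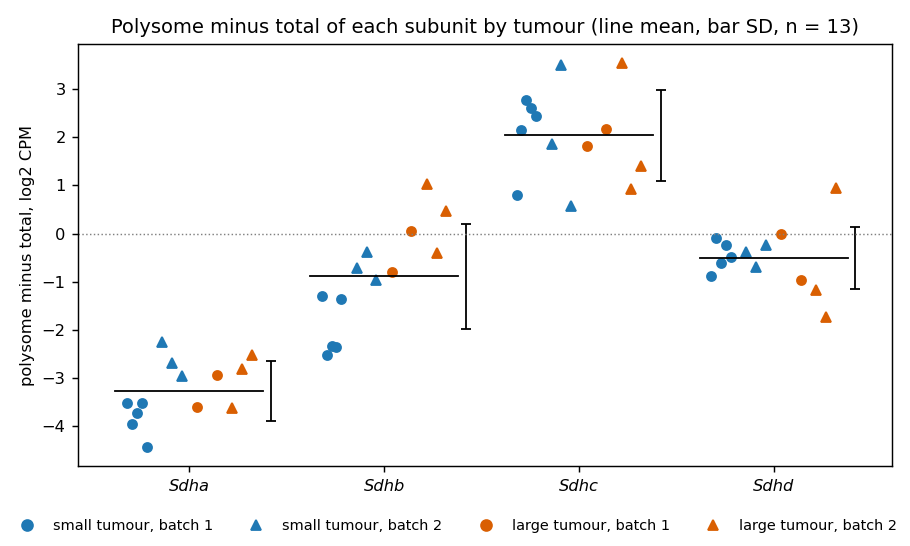
Polysome minus total (log2 CPM) of each subunit in each tumour, with colour for size and marker shape for batch; the line is the mean and the bar the SD over 13 tumours. Sdha lies between −4.43 and −2.26, Sdhc between 0.57 and 3.54, and Sdhb and Sdhd lie around and under 0.

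The authors' deposited log2 values, which list 10472 genes and all 4 subunits, put the family in the same places. Their mean polysome minus total was −3.25 for Sdha, −0.86 for Sdhb, 2.06 for Sdhc and −0.48 for Sdhd. No tumour's deposited difference departed from the recomputed one by more than 0.05. Both sets of values come from the same libraries, so this checks the recomputation and is not separate evidence.

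The makeup of the family differed between both RNA sources when levels were compared per length. CPM was divided by the length of the annotated main transcript in kilobases, and each subunit was given as a share of the sum of the 4. In total mRNA Sdhb held 47.7% ± 9.24 (SD, n = 13), Sdha 27.6% ± 11.9, Sdhd 15.2% ± 5.32 and Sdhc 9.51% ± 3.87. In polysome mRNA Sdhc held 47.4% ± 14.4, Sdhb 35.2% ± 15, Sdhd 13.4% ± 4.77 and Sdha 4.12% ± 3.52. Sdhc was the lowest of the 4 per kilobase in 11 of 13 total libraries and the highest in 8 of 13 polysome libraries, with Sdhb highest in the other 5. In total libraries Sdhb was highest in 10 and Sdha in 3, those of the tumours with little Lars2. The shares of Sdhb and Sdhc in polysome mRNA overlapped (10.9 to 54.7% and 29.8 to 75.0%), and neighbours in the total order overlapped as well. Without the 3 tumours with little Lars2, Sdha held 21.6% ± 3.57 of total and 2.79% ± 0.989 of polysome mRNA of the family (SD, n = 10), Sdhb 51.8% ± 4.44 and 34.7% ± 16.8, Sdhc 10.7% ± 3.56 and 47.5% ± 15.9, and Sdhd 15.8% ± 5.23 and 15% ± 4.17. These shares assume the annotated transcript lengths, since the authors' annotation is not given in the sources used here.

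**Figure D3:**
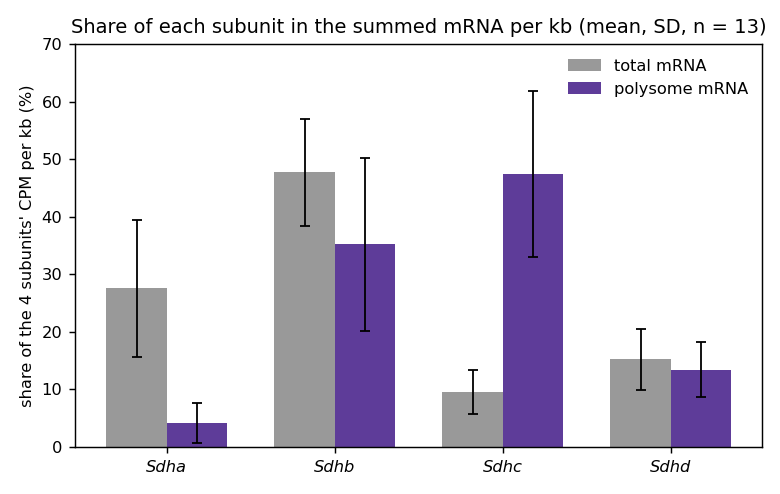
Share (percent) of each subunit in the summed CPM per kilobase of the 4 subunits, in total mRNA (grey) and polysome mRNA (purple); bars are means and whiskers SD over 13 tumours. The Sdha bar goes from 27.6% in total to 4.12% in polysome mRNA and the Sdhc bar from 9.51% to 47.4%.

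The 4 assembly factors, which mature the subunits before they join, had mean levels below those of the subunits in both RNA sources. In polysomes against total mRNA, 2 of the 4 fell. By edgeR's quasi-likelihood test with Benjamini-Hochberg adjustment over all genes, 56.6% of genes passed in this comparison, 22.6% higher and 34% lower. Sdhaf2, which attaches the flavin to SDHA, averaged 58.6 CPM in total and 26.9 in polysome mRNA and was lower in 13 of 13 tumours (−1.21 ± 0.21 SE, adjusted p = 2.07e-05). Sdhaf3, which helps mature SDHB, averaged 3.41 and 0.945 CPM and was at 0 in 6 polysome libraries (−3.06 ± 0.93, adjusted p = 0.00676, lower in 12 of 13). Sdhaf1, which also serves SDHB, had a value of 0.15 ± 0.29 (adjusted p = 0.672), and Sdhaf4, which serves SDHA, had −0.45 ± 0.30 (adjusted p = 0.212).

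Of the other enzymes of the tricarboxylic acid cycle, 10 of 12 tested were lower in polysomes and 1 was higher, with a median of −1.26. Idh3a, the catalytic subunit of NAD-dependent isocitrate dehydrogenase, was lowest at −2.58 ± 0.21 (SE, adjusted p = 7.32e-10), and Idh3g, its regulatory partner, was at −1.74 ± 0.19 (adjusted p = 5.55e-08). The enzymes on either side of succinate dehydrogenase were among the lower ones: Suclg1, the shared subunit of succinyl-CoA synthetase (−1.78 ± 0.28 SE, adjusted p = 6.36e-06), and Fh1, the fumarase (−2.15 ± 0.36, adjusted p = 1.56e-05). Idh3g, Suclg1 and Fh1 were picked after their values were seen, so their p-values are a description. Dld, the dihydrolipoamide dehydrogenase, fell by 2.52. Ogdh, of the 2-oxoglutarate dehydrogenase complex, was the 1 enzyme higher (0.73 ± 0.20, adjusted p = 0.0033). Sdha, at −3.23, was under all 12 of these enzymes, and Sdhc, at 2.02, was over all of them.

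Other genes that feed electrons to ubiquinone had a median of −1.37, with 5 of 7 lower and 2 higher. Etfdh, the flavoprotein dehydrogenase that does so for fatty acid oxidation, fell by 2.03 (SE 0.36, adjusted p = 3.61e-05). Etfa and Etfb, the subunits of the electron carrier that supplies it, were higher by 1.34 ± 0.18 and 0.44 ± 0.19 (adjusted p = 9.23e-07 and 0.0473). Dhodh (−1.49), Gpd2 (−1.37), Sqrdl (−1.17) and Prodh (−1.44), dehydrogenases of pyrimidine synthesis, the glycerol phosphate shuttle, sulfide and proline, were lower.

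Genes of succinate transport and of the response to it had no common direction, with 3 of 9 higher, 2 lower and a median of −0.17. Slc13a3, a plasma membrane carrier of succinate, was higher by 1.24 ± 0.20 (SE, adjusted p = 8.29e-06), Slc25a1, the citrate carrier, by 1.14 ± 0.19 and Egln1, a prolyl hydroxylase inhibited by succinate, by 1.55 ± 0.30. Hif1a, whose protein that hydroxylase marks for destruction, fell by 1.50 (SE 0.20, adjusted p = 7.01e-07), and Slc25a11, the 2-oxoglutarate carrier, by 0.69. Slc25a10, the dicarboxylate carrier that takes succinate across the inner membrane, was at −0.23 ± 0.21 (adjusted p = 0.376), Egln2 at −0.17 ± 0.25 and Egln3 at −0.09 ± 0.48. Acod1, the itaconate synthase, averaged 3.85 CPM in total and 2.59 in polysome mRNA, with a value of −0.68 ± 0.60 (adjusted p = 0.345). Sucnr1, the succinate receptor, did not pass the filter on low counts. Without the 3 tumours with little Lars2, the median was −1.03 for the assembly factors and −1.05 for the cycle enzymes. It was −1.13 for the genes that feed ubiquinone and 0.42 for these 9 genes. The median of the last list thus changed its sign.

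The subunits of succinate dehydrogenase spanned a wider range than those of any other respiratory complex in these lists, although they are the fewest. Fitted polysome minus total ran from −3.23 to 2.02 in complex II, a range of 5.25. The range was 3.43 over 32 subunits of complex I, with 7 higher, 14 lower and a median of −0.31. It was 2.47 over 8 subunits of complex III (2 higher, 3 lower, median −0.19) and 3.06 over 12 genes listed under complex IV (5 higher, 4 lower, median −0.01). The 14 nuclear-encoded ATP synthase genes ranged over 3.69, with 4 higher, 5 lower and a median of −0.13.

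Among these 66 other listed genes, 0 lay under Sdha and 1, Atp5g2 at 2.18 ± 0.34 (SE), lay over Sdhc. The lowest of complex I was Ndufs1 (−2.03 ± 0.25), its large iron-sulfur subunit, and the highest Ndufa6 (1.40). Complex III ran from Uqcrb (−1.55) to Uqcr11 (0.92) and the complex IV list from Cox7a2l (−1.10) to Cox6a1 (1.96 ± 0.19). Atp5c1, the shaft of the ATP synthase, was its lowest at −1.51 ± 0.17. With the 3 tumours of little Lars2 left out, the range was 4.75 in complex II and 3.69, 3.02, 3.36 and 2.91 in complexes I, III and IV and the ATP synthase. Sdha was then still under all 66, and 3 lay over Sdhc at 1.62, Cox6a1 (2.01), Ndufa6 (1.67) and Cox4i1 (1.64), but no longer Atp5g2 (1.40). Since the family was picked for these values, its position among the complexes is a description and was not tested.

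**Figure D4:**
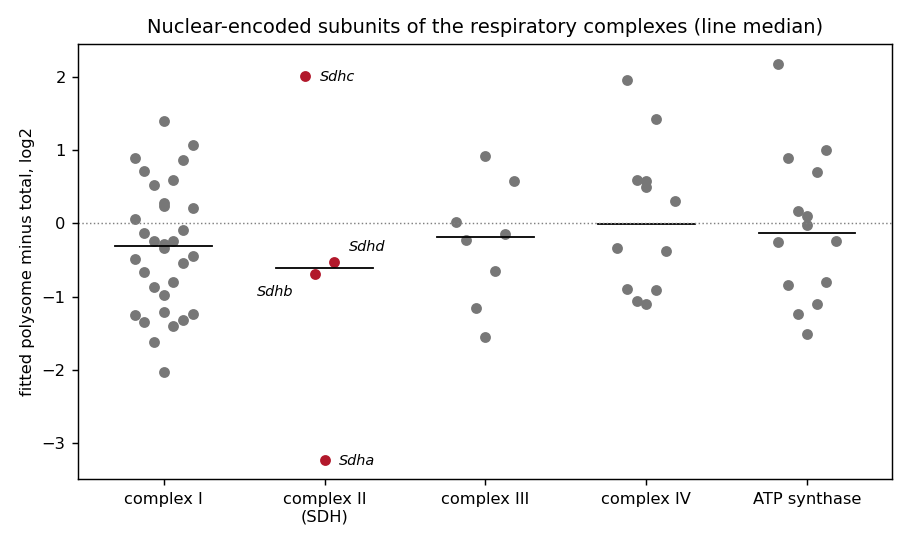
Fitted polysome minus total (log2) of each nuclear-encoded gene tested in the lists of the 5 complexes of oxidative phosphorylation. Each point is 1 gene, lines are medians, and the 4 succinate dehydrogenase subunits are red. The fit used all 13 tumours. Sdha at −3.23 lies under every other point and Sdhc at 2.02 is passed only by 1 ATP synthase gene at 2.18.

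The subunit whose polysome level differed most between tumour sizes was Sdhb. In polysome mRNA the large tumours held 218 ± 60.1 CPM of Sdhb (SD, n = 5; 142 to 303) and the small tumours 78.9 ± 32.4 (n = 8; 45.9 to 131). Their ranges did not overlap, as for 0.421% of the 10933 genes tested that were higher in large tumours. Total mRNA of Sdhb was 221 ± 94.9 CPM in large and 228 ± 91.4 in small tumours, ranges that overlapped, as for nearly all genes (0.00857% did not).

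The fit with batch as a covariate gave a large minus small value of 1.49 ± 0.31 (SE) for Sdhb in polysome mRNA, a 2.81-fold higher level, and 98.1% of genes had a lower value. In total mRNA it gave 0.09 ± 0.34. The difference between sizes of polysome minus total was 1.32 ± 0.38 for Sdhb, with batch 1 alone at 1.62 ± 0.48 and batch 2 alone at 1.03 ± 0.56. In polysome mRNA both batches alone gave like values of Sdhb, 1.57 ± 0.46 and 1.27 ± 0.36. Per tumour, polysome minus total of Sdhb was −1.49 ± 0.82 in small tumours (SD, n = 8; −2.52 to −0.38) and 0.07 ± 0.72 in large tumours (n = 5; −0.80 to 1.04). These per-tumour differences overlapped, since large replicate 1 at −0.80 and large replicate 4 at −0.40 lay within the range of the small tumours. Differences without overlap between sizes were found for 0.487% of genes.

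No gene passed the threshold for size in edgeR's quasi-likelihood test, in total mRNA (0 of 11671 tested, 0%; 538, 4.61%, at an unadjusted p under 0.05), in polysome mRNA (0 of 10933, 0%; 1362, 12.5%) or in polysome minus total (0 of 12109, 0%; 1385, 11.4%). DESeq2 called 0, 152 and 129 genes and limma voom 0, 0 and 0. By edgeR, leaving out small replicate 5, the small tumour with the most polysome Sdhb, gave 42 genes past the threshold in polysome mRNA, and leaving out small replicate 6 gave 1. Without small replicate 7 the polysome Sdhb level of small tumours was 82.7 ± 33 CPM (SD, n = 7). With small replicates 6 and 7 and large replicate 3 left out together it was 81.2 ± 35.9 CPM in small (n = 6) and 225 ± 66.4 in large tumours (n = 4). These levels were not rescaled, so leaving tumours out could not make the ranges overlap.

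**Figure D5:**
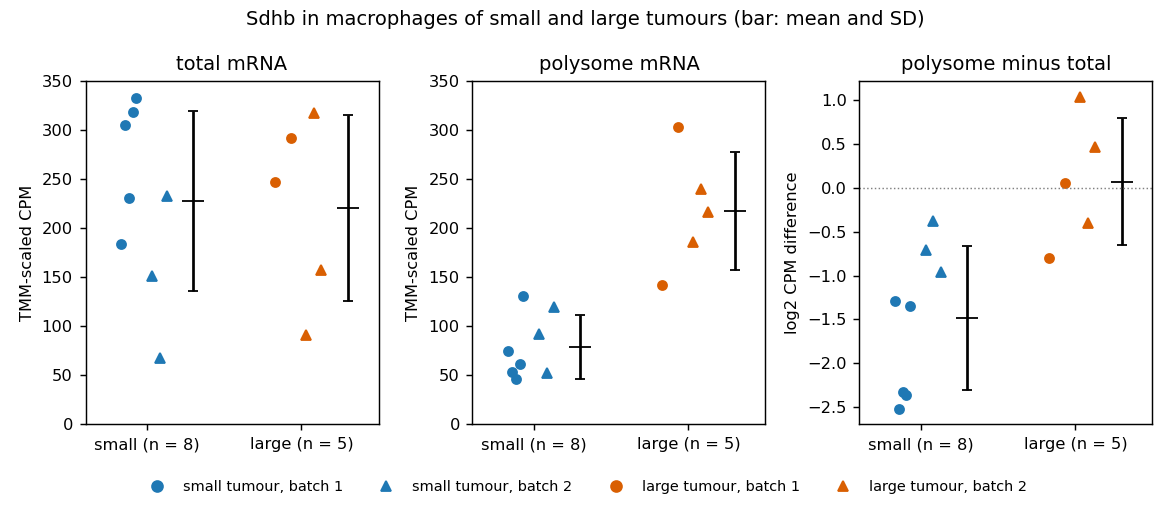
Sdhb in macrophages of small and large tumours: TMM-scaled CPM in total mRNA, TMM-scaled CPM in polysome mRNA, and polysome minus total (log2 CPM), 1 point per tumour with mean and SD beside them; marker shape marks batch. In polysome mRNA the large tumours (142 to 303 CPM) lie above the small tumours (45.9 to 131 CPM), whereas total levels overlap.

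The other subunits had size values nearer to 0. In polysome mRNA, large minus small was 0.38 ± 0.35 (SE) for Sdha, 0.21 ± 0.36 for Sdhc and 0.34 ± 0.37 for Sdhd. In total mRNA it was 0.18 ± 0.25, 0.05 ± 0.42 and 0.65 ± 0.45 in the same order. The difference between sizes of polysome minus total was 0.09 ± 0.36 for Sdha, −0.11 ± 0.50 for Sdhc and −0.14 ± 0.42 for Sdhd. Levels of small and large tumours overlapped for these 3 genes in both RNA sources. Whether the size value of Sdhb differs from those of its partners was not tested.

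The partners of Sdhb in the respiratory chain mostly had values above 0 for size in polysome minus total, and none passed the threshold in edgeR. The median was 0.76 for complex I (30 of 32 above 0), 0.61 for complex III (8 of 8), 0.47 for complex IV (10 of 12) and 0.55 for the ATP synthase (12 of 14), against −0.06 over all genes. The 4 assembly factors were at 0.60 to 2.55, with Sdhaf1 at 1.79 ± 0.60 (SE), and the other tricarboxylic acid cycle enzymes had a median of −0.22. The median of the succinate dehydrogenase subunits was −0.01, with Sdhb far from the other 3. In total mRNA the medians of these complexes were between −0.22 and −0.15. Lars2 took 20700 to 112000 CPM of the polysome libraries of large tumours and 46800 to 246000 of those of small tumours, and its part in the size values was not tested.

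Batch was a contrast that played no part in picking the family, and 1 of the 4 subunits passed for polysome minus total. So did 17.4% of all genes, 10.5% higher in batch 2 and 6.95% lower, with a median over all genes of 0.26. With 4 genes, 1 call does not set the family apart from that share. Sdhb was at −1.51 ± 0.95 (SD, n = 7) in batch 1 and −0.16 ± 0.76 (n = 6) in batch 2, with ranges that overlapped, while 6.35% of genes had none. In the fit Sdhb rose by 1.08 ± 0.37 (SE; edgeR's quasi-likelihood test, adjusted p = 0.0429), and 71.8% of genes had a lower value.

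This call for Sdhb was a narrow one. It was lost on leaving out any of small replicates 2, 3, 4, 6, 7 and 8 (0.98, 1.01, 1.00, 1.05, 0.93 and 1.12) or large replicates 1, 3 and 5 (1.01, 0.99 and 1.03), with adjusted p = 0.0542 to 0.13 in edgeR. With small replicates 6 and 7 and large replicate 3, all of batch 2, left out together the value was 0.69 ± 0.43 (SE). With RLE scaling, which moves the median of all genes to 0.15, it was 0.97 (edgeR adjusted p = 0.067).

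Sdha was at −3.67 ± 0.46 (SD, n = 7) in batch 1 and −2.81 ± 0.46 (n = 6) in batch 2, a fitted difference of 0.84 ± 0.35 (SE; edgeR adjusted p = 0.0998). Sdhc was at 2.10 ± 0.66 and 1.97 ± 1.28 and Sdhd at −0.47 ± 0.37 and −0.55 ± 0.92, with fitted differences of −0.15 ± 0.49 and −0.07 ± 0.41 (edgeR adjusted p = 0.874 and 0.938). The direction of Sdha and Sdhc against total mRNA was the same in every tumour of both batches.

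The levels themselves passed no test between batches. In total mRNA, batch 2 minus batch 1 was 0.00 ± 0.24 (SE) for Sdha, −0.69 ± 0.33 for Sdhb, −0.16 ± 0.41 for Sdhc and −0.84 ± 0.44 for Sdhd, with edgeR adjusted p = 0.999, 0.151, 0.801 and 0.186 and 16.7% of all genes called. In polysome mRNA it was 0.82 ± 0.35, 0.13 ± 0.31, −0.81 ± 0.35 and −1.01 ± 0.37, with adjusted p = 0.0959, 0.793, 0.107 and 0.056 and 21.4% of genes called. Sdha and Sdhd thus had values of opposite sign in polysome mRNA. The 3 tumours with little Lars2 all belong to batch 2, so leaving them out left that batch with fewer tumours. Without them edgeR called 5 of 11581 genes in total mRNA (0.0432%) and 939 of 10654 in polysome mRNA (8.81%). None of the subunits was among these genes, and the polysome value of Sdha was 0.14 ± 0.39 (SE) and that of Sdhd −0.48 ± 0.42. No size by batch term passed in edgeR for any gene (735, 6.3%, 655, 5.99%, and 904, 7.47%, at an unadjusted p under 0.05 in total mRNA, polysome mRNA and polysome minus total). The one farthest from 0 among the subunits was that of Sdha in polysome mRNA (−1.26 ± 0.67, edgeR adjusted p = 0.812).

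In the other respiratory complexes the genes called between batches were each higher in batch 2, as were 10.5% of all genes: 7 of 32 in complex I, 4 of 8 in complex III, 8 of 12 in complex IV and 7 of 14 in the ATP synthase. Their medians were 0.76, 1.05, 1.34 and 1.08, against 0.39 for the succinate dehydrogenase subunits and 0.26 over all genes. Without the 3 tumours with little Lars2, 5, 3, 3 and 4 were called in the same order and 0 of the 4 succinate dehydrogenase subunits. Fewer genes passed in that fit over all genes as well. Whether the lists differ from each other was not tested. Of the assembly factors 0 of 4 passed (0.80 to 1.54), and of the other tricarboxylic acid cycle enzymes 1 of 12 did, Dld at 1.45 ± 0.44 (SE, edgeR adjusted p = 0.025), and 0 of 12 without the 3 tumours.

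Over all 13 tumours the subunits had weak correlations with each other. After each batch's mean was taken away, the correlation of polysome minus total over the 13 tumours was 0.07 between Sdha and Sdhb, −0.30 between Sdha and Sdhc, 0.15 between Sdha and Sdhd, 0.13 between Sdhb and Sdhc, and −0.12 both for Sdhb with Sdhd and for Sdhc with Sdhd. Without the 3 tumours with little Lars2 (n = 10) the value for Sdha with Sdhb was 0.55 and the others lay between −0.17 and 0.26. These values come from the same libraries and are given as a description. Among 7246 genes whose mean reached 10 CPM, those most like Sdhb were Mrpl17 (r = 0.93), a protein of the mitochondrial ribosome, Phb2 (0.92), a prohibitin of the inner mitochondrial membrane, and Dusp12 (0.86), a phosphatase. Most like Sdha were C2cd3 (0.86), Gsdmd (0.85), the gasdermin of pyroptosis, and Cx3cr1 (0.83), the fractalkine receptor. Most like Sdhc were Tpra1 (0.93), Zfp384 (0.90) and Emd (0.90), the gene of emerin, and most like Sdhd were Ankrd40 (0.80), Plat (0.79), the tissue plasminogen activator, and Gss (0.78), the glutathione synthetase. None of these lists named another subunit of the enzyme.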

How the data were processed

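Per the labels, each of the 13 tumours gave a total and a polysome library. The authors deposited, per library, whole-number read counts per gene and log2 values headed TMM-LOG2. Tests used the counts, and the log2 values were only compared. The submitters' processing notes name the tools HISAT, HISAT2 and limma and the build mm10 without roles or versions. How reads were counted, on which annotation and strand, is not given in the sources used here. In 830 of 19549 rows overlapping genes are joined by name.

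Tumours were divided at 1000 mg. Genes were filtered with filterByExpr, scaled with TMM and fitted with the robust quasi-likelihood test of edgeR 4.0.16 (R 4.3.3), with Benjamini-Hochberg adjustment at 0.05 over all genes. Size fits were run for total and polysome mRNA apart and carried a batch term. A joint fit of all 26 libraries, blocked by tumour, gave polysome against total and its difference by size and by batch. Both libraries of a tumour come from 1 sorted population per the labels, and their deviations had a median correlation of 0.249 (lowest 0.0372) within and −0.0167 between tumours. Differences per tumour used a prior count of 1. Scripts were tested on simulated data.

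Alternatives were RLE and upper-quartile scaling, DESeq2 1.42.0, limma voom (limma 3.58.1), other filters, log2 weight, each batch or size alone, no block or batch term, and leaving out each tumour. Leaving out 3 tumours together was added after seeing the data. The members and all gene lists were chosen with earlier results of these data known. Besides the members, the text names each gene of lists with up to 10 measured genes or examples of longer ones, the ends of the lists, and the 3 genes most like each member. Idh3g, Suclg1 and Fh1 were picked after their values were seen. Similar transcripts were searched with blastn 2.17.0 in GENCODE M21.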

Additional observations from a re-analysis of the deposited data

Results flagged for a closer look

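The polysome association of Sdhb differed between both experimental batches, by 1.08 ± 0.37 (SE) on the log2 scale (edgeR's quasi-likelihood test, adjusted p = 0.0429). In this contrast 17.4% of all genes passed, with a median of 0.26 over all genes. The call of Sdhb was lost under 6 of 10 alternatives and in 9 of 13 fits that left out 1 tumour. It was the 1 tested contrast between groups that the 4 subunits passed. Polysome minus total of Sdhb was below 0 in 6 of 7 tumours of batch 1 and in 4 of 6 of batch 2. In total mRNA Sdhb averaged 273 ± 53.8 CPM (SD, n = 7) in batch 1 and 169 ± 92.6 (n = 6) in batch 2, and in polysome mRNA 116 ± 90.8 and 151 ± 74.3.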

How the results depend on the processing

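Of 208 values of single subunits under alternatives other than leaving out 1 tumour, 183 counted as unchanged, 17 reversed and the others crossed the threshold. Unchanged meant the same direction and the same side of the threshold. For polysome against total no threshold was applied, and it meant the same direction and a shift smaller than the SD over tumours. Polysome against total kept its sign for all 4 subunits under every alternative run, with Sdha between −3.33 and −3.10, Sdhb −0.79 and −0.53, Sdhc 1.82 and 2.20 and Sdhd −0.69 and −0.33 on leaving out 1 tumour, and 6364 to 6834 genes called; batch 2 alone called 3606.

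For size, DESeq2 called 152 genes in polysome mRNA and 129 in polysome minus total, and gave Sdhb values of 1.45 and 1.33; no filter gave 3 and 8, and log2 weight gave 1 in polysome mRNA. Reversed values in total mRNA were Sdhb −0.09 with no batch term, −0.06 in batch 1 alone and −0.05 without the 3 tumours (small replicates 6 and 7 and large replicate 3), and Sdhc −0.05 with log2 weight, −0.05 in batch 1 alone and −0.20 without the 3 tumours. In polysome mRNA they were Sdhc −0.09 and Sdhd −0.01 with no batch term, Sdhc −0.34 and Sdhd −0.16 in batch 1 alone, Sdha −0.37 in batch 2 alone, and Sdhc −0.20 and Sdhd −0.03 without the 3 tumours. In polysome minus total they were Sdha −0.36 in batch 2 alone, Sdhc 0.03 with no replicate block and Sdhc 0.12 without the 3 tumours. The main values of these were small beside their SE, and the cause was not tested.

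Leaving out each tumour gave, for size in total mRNA, 0 genes and ranges of 0.10 to 0.36 (Sdha), −0.18 to 0.32 (Sdhb), −0.18 to 0.64 (Sdhc) and 0.18 to 0.97 (Sdhd). In polysome mRNA it gave 0 to 42 genes and −0.02 to 0.61, 1.22 to 1.64, −0.04 to 0.42 and 0.11 to 0.52. In polysome minus total it gave 0 genes and −0.15 to 0.29, 1.09 to 1.58, −0.45 to 0.27 and −0.42 to 0.18.

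Between batches, the call of Sdhb was lost with RLE scaling (0.97), no filter (1.07), no replicate block (0.87), small tumours alone (1.20), large tumours alone (0.74) and without the 3 tumours (0.69), where Sdhd reversed to 0.16. Large tumours alone called 25 genes and leaving out the 3 tumours left 865. Leaving out 1 tumour gave 1385 (without small replicate 6) to 2227 genes and 0.68 to 1.03 (Sdha), 0.93 to 1.26 (Sdhb), −0.57 to 0.24 (Sdhc) and −0.38 to 0.09 (Sdhd). The block changed no other call of a subunit. With 5 large tumours the size tests can miss changes well above their SE, and a value without a call does not show that the sizes are alike.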
